A study of Arabidopsis thaliana with 17 samples.

Results

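The genes described here are 47 nuclear genes of Arabidopsis thaliana that encode subunits of the photosynthetic machinery of the chloroplast thylakoid. They were taken by locus from a list drawn up by the complex each serves. This rule uses no measured value, but the list was chosen with earlier results of these data known. All 47 were found among the 27655 genes measured. They comprise 14 LHCB genes for the light-harvesting antenna of photosystem II, 6 LHCA genes for the antenna of photosystem I, 10 genes for photosystem II subunits, 12 for photosystem I subunits, 3 for electron carriers between the photosystems and 2 for chloroplast ATP synthase. All 47 passed the filter on low counts, which left 21282 genes for testing.

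As background, photosystem II oxidises water and photosystem I reduces ferredoxin, and electrons pass between them through the cytochrome b6f complex and plastocyanin while ATP synthase uses the resulting proton gradient. The reaction centre proteins are made inside the chloroplast, whereas the antenna proteins and many small or extrinsic subunits are encoded in the nucleus, made in the cytosol and imported. In green seedlings these nuclear genes give some of the most abundant messenger RNAs of the cell, and their transcription is known to respond to light and to the state of the chloroplast.

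RNA was measured in seedlings grown in hydroponic culture to 14 days and exposed to 200 mM NaCl, a salt stress, for 0 h or 24 h. There were 3 lines. Col-0 is the standard wild type. The line atdgcr14l-1, called the mutant below, is altered in AtDGCR14L, a gene named for its likeness to human DGCR14, which encodes a nuclear protein found with spliceosomes. OE-6 is the complementation line, in which the mutant carries AtDGCR14L behind the constitutive 35S promoter. OE-6 is 1 transgenic line and atdgcr14l-1 is 1 allele, and what the allele does to the gene is not given in the sources used here. Col-0 at 0 h had 2 libraries and the other 5 groups had 3 each, 17 in all. Every salt comparison sets 24 h of NaCl against 0 h of the same line, so it also holds whatever changed over those 24 h, and no unsalted library of 24 h was analysed here. Nothing in the labels tells whether replicates are different plants or cultures. All p-values therefore rest on library-to-library spread, which may be technical.

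Libraries held 53058673 to 56464259 counts assigned to genes. AtDGCR14L stood at 59.9 and 55.7 CPM (counts scaled to the size of the library) in Col-0, 8.27, 8.52 and 6.76 in the mutant and 43.2, 48.6 and 50.5 in OE-6 at 0 h. At 24 h it stood at 74.2, 78.8 and 72.2 CPM for Col-0, 11.3, 13.1 and 12.1 for the mutant and 67.6, 88.3 and 68.4 for OE-6, so that it was lowest in the libraries labelled as mutant at both times. The seedling label was set against root, epidermis and green tissue genes. Of the 10 root genes, PLT1, EXPA7, LRX1 and COBL9 were at or near 0 in every library. The others listed were PYK10, CASP1, PRP3, WOX5, SCR and SHR. The filter on low counts kept 6 of the 10, and 7 had a count in each Col-0 library of 0 h. The summed level of the root list ran from 192 to 201 CPM in Col-0 at 0 h and from 74.0 to 173 CPM at 24 h. In Col-0 at 0 h, 6 green tissue genes outside the 47 summed to 30084.3 to 33913.7 CPM. How much root the samples held was not tested. At 24 h, replicate 3 of the mutant and replicate 1 of OE-6 were the lowest of their groups for 42 and 44 of the 47 photosynthesis genes, and OE-6 replicate 2 was the highest for 39. At 0 h, Col-0 replicate 2 was above replicate 1 for 46 of 47. Counts of calls are therefore also given without these libraries where leaving one out changed them by more than 1.5 times.

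The 47 genes together held 14.1% to 15.3% of all counts in the 8 libraries of 0 h and 7.09% to 11.3% in the 9 libraries of 24 h. Their summed level was 146450.0 and 162112 CPM at 0 h and 97985, 87576 and 73559.8 CPM at 24 h in Col-0, 148959, 144325 and 149136 and then 87859.7, 82052 and 70858 in the mutant, and 163468, 150437 and 153225 and then 70752, 114331 and 97536 in OE-6. Every library of 24 h lay below every library of 0 h of its line. The mean sum after 24 h was 56.0%, 54.4% and 60.5% of that at 0 h in Col-0, the mutant and OE-6. In bulk RNA, fewer cells of a type and less RNA per cell cannot be told apart.

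**Figure D1:**
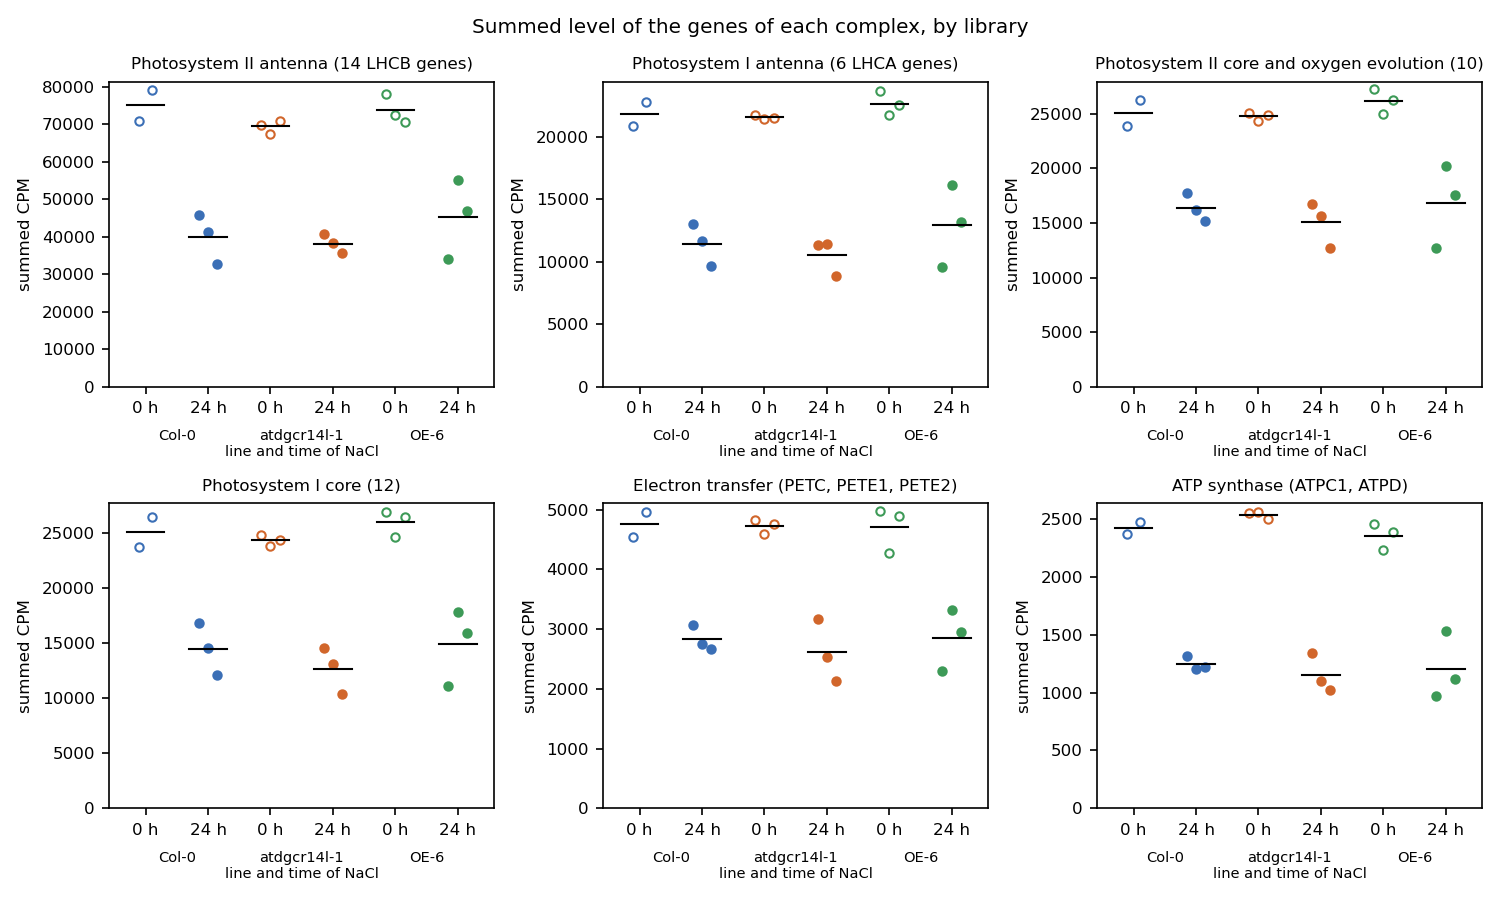
Summed level of the genes of each complex in every library, in CPM, by line and time. Open symbols are 0 h, filled symbols are 24 h of 200 mM NaCl and the black line is the group mean; in each of the 6 complexes and 3 lines the filled symbols lie below the open ones.

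The plot of summed levels by complex shows that the sums of all 6 complexes had the same order. The LHCB sum, the largest, averaged 75075 ± 5721 CPM (SD, n = 2) in Col-0 at 0 h and 39960.4 ± 6708 CPM (SD, n = 3) at 24 h. After 24 h the sums stood, in Col-0, the mutant and OE-6, at 53.2%, 55.0% and 61.5% of the 0 h mean for LHCB and at 52.3%, 48.8% and 57.2% for LHCA. The photosystem II subunits stood at 65.4%, 60.7% and 64.4% and those of photosystem I at 57.8%, 52.1% and 57.5%. The sum of the 3 electron carrier genes stood at 59.4%, 55.3% and 60.7% and that of the ATP synthase genes at 51.5%, 45.5% and 51.2%. In Col-0 the LHCB genes made up 48.7% of the members' sum at 0 h and 46.1% at 24 h, and the photosystem II subunits 16.2% and 19.1%.

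Gene by gene, edgeR's quasi-likelihood test (a model of the 6 groups over all 17 libraries) called 44 of 47 lower at 24 h than at 0 h in Col-0, where 21.4% of all genes tested were called lower and 25.4% higher. A gene was called where its p, adjusted over all 21282 genes by the method of Benjamini and Hochberg, was under 0.05. In the mutant it called 44 of 47 lower, against 26.7% of all genes lower and 31.3% higher, and in OE-6 43 of 47, against 25.7% lower and 29.5% higher. No member was called higher by edgeR in any line, and at an unadjusted p under 0.05 1 was higher in Col-0 (LHCB4.3) and 0 in the other lines. The plot of changes by gene shows these calls. DESeq2 called 44 lower in each line, 1 higher in Col-0 (LHCB4.3) and 0 higher in the mutant and OE-6. The median log2 difference over the 47 genes, 24 h minus 0 h, was -0.83 in Col-0, -0.95 in the mutant and -0.81 in OE-6, beside 0.03 over all genes tested in each line. The values of 24 h lay wholly below those of 0 h for 45 genes in Col-0, 44 in the mutant and 44 in OE-6, where the same held for 34.3%, 32% and 29.1% of all genes tested. The call was lower in all 3 lines for 42 genes and in none for 2, LHCB4.3 and PSBS. For the other 3, PSBR, LHCB1.1 and LHCB1.3, it was lower in 1 or 2 lines. Without Col-0 0 h replicate 2 the Col-0 count was 32, the calls lost being those of LHCB1.3, LHCB4.1, LHCA2, LHCA5, PSBO1, PSBW, PSBX, PSAE1, PSAE2, PSAH1, PSAL and PETC.

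**Figure D2:**
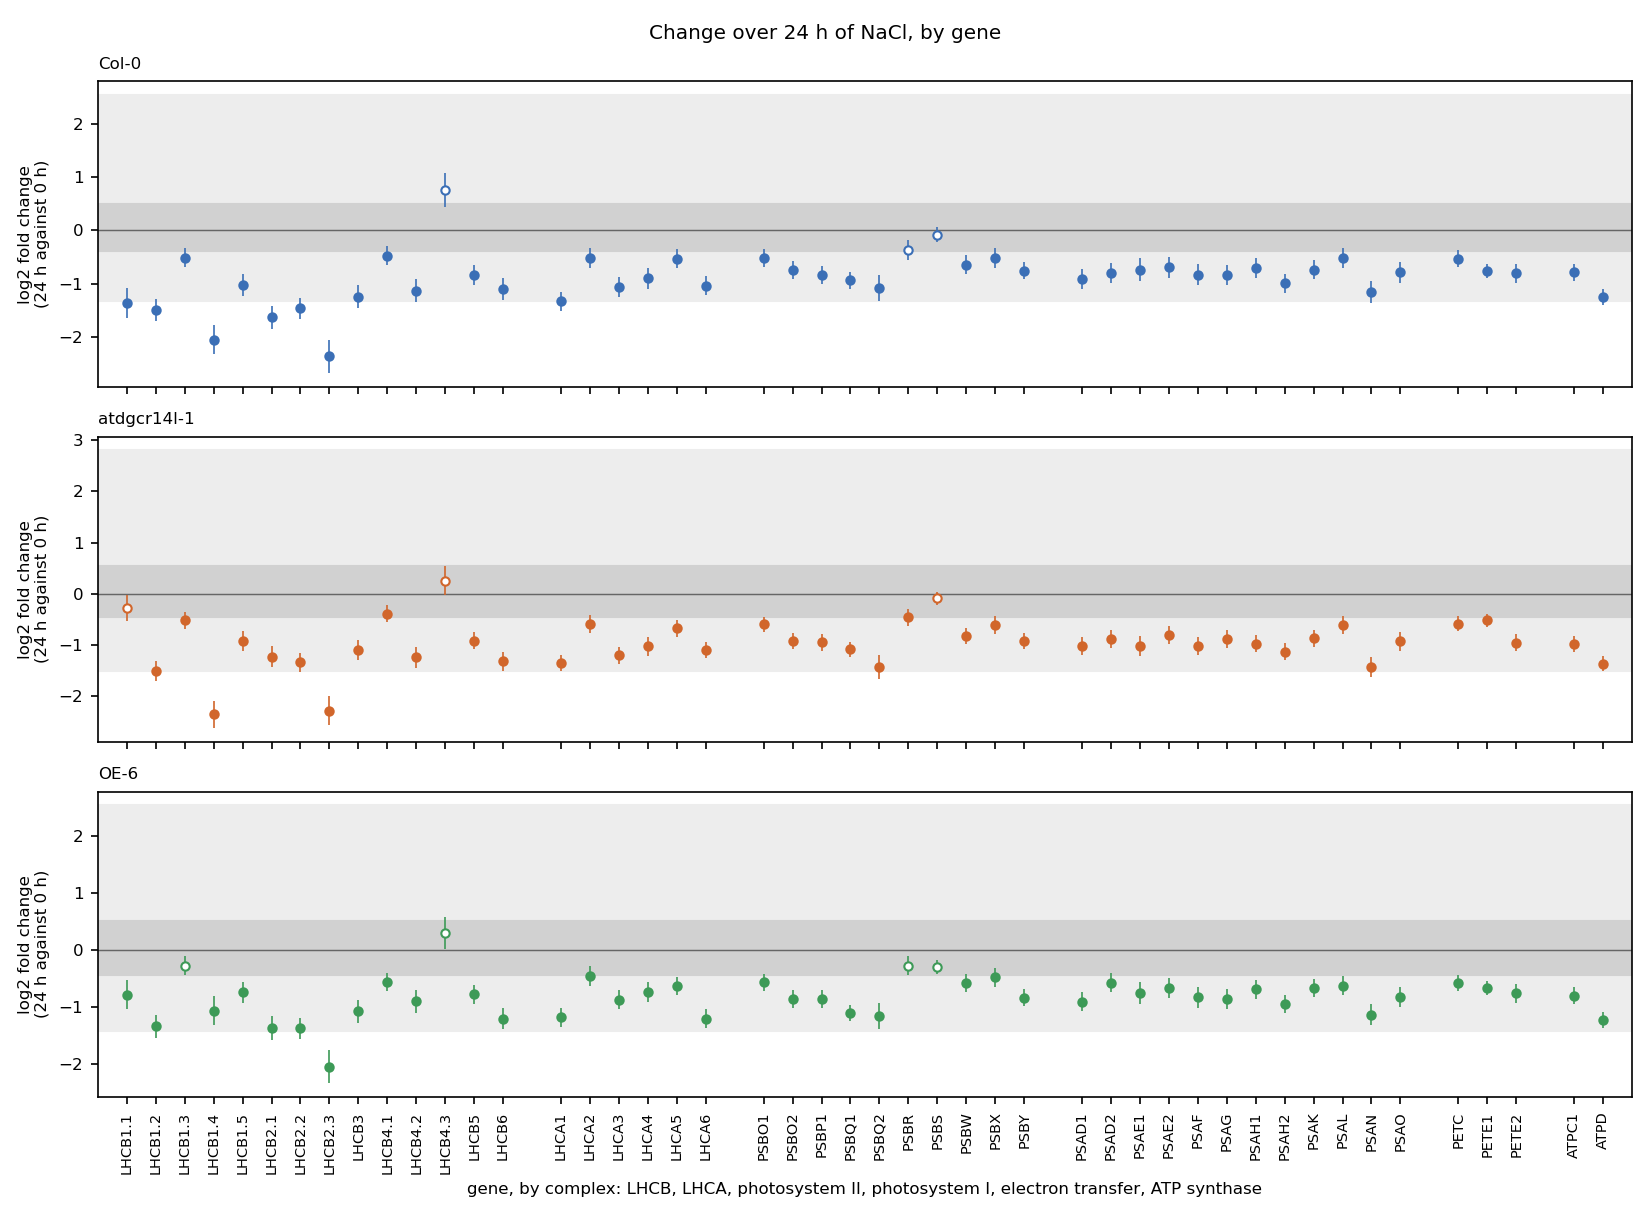
Log2 difference between 24 h and 0 h of 200 mM NaCl for each of the 47 genes in the 3 lines, ordered by complex; points are edgeR estimates with standard errors and filled points were called. The dark grey band holds the 25th to 75th percentile of all genes tested and the light band the 5th to 95th; 44, 44 and 43 of 47 genes were called lower in Col-0, atdgcr14l-1 and OE-6, and LHCB4.3 is the 1 gene above 0 in each.

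Genes outside the list that mark green tissue, epidermis and root were read over the same 24 h. Of 6 leaf genes outside the list (RBCS1A, RBCS1B, RBCS2B, RBCS3B, CA1 and RCA, for Rubisco, its activase and carbonic anhydrase), 5 were called lower in Col-0 and in the mutant and all 6 in OE-6. Their summed level ran from 30084.3 to 37331.5 CPM over all libraries of 0 h and from 14077.5 to 22535.2 CPM over those of 24 h. The summed level of 4 epidermis genes ran from 674 to 856 CPM and then from 344 to 626 CPM, and 1 of the 4 was called lower in each line. Root genes summed to 157 to 241 CPM at 0 h and 37.5 to 250.3 CPM at 24 h, with 2 of the 6 tested called lower in Col-0, 1 in the mutant and 2 in OE-6. Of these 6, 1 was called higher in the mutant. Over all genes tested, 21.4% were called lower in Col-0, 26.7% in the mutant and 25.7% in OE-6. The share called higher in the mutant was 31.3%. With so few genes, the epidermis and root counts cannot be told apart from those shares. The part of a changed mix of tissues in the lower photosynthesis values was not tested.

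Among the genes of the photosystem II antenna, 13 of 14 were called lower with salt in Col-0, 12 in the mutant and 12 in OE-6. The log2 difference was below 0 for 13 of 14 in each line. The median log2 differences were -1.19, -1.16 and -0.99. LHCB1, LHCB2 and LHCB3 proteins form the mobile and bound trimers of the major antenna, and LHCB4, LHCB5 and LHCB6 (CP29, CP26 and CP24) are monomers that link it to the core. LHCB2.3 (AT3G27690) had the smallest p of the group in Col-0. Its levels were 328 and 389 CPM at 0 h and 85.0, 88.1 and 35.5 CPM at 24 h in Col-0, 512, 513 and 406 and then 105, 102 and 88.1 in the mutant, and 374, 304 and 316 and then 53.3, 97.1 and 89.7 in OE-6. Every value of 24 h lay below every value of 0 h in its line. Its log2 differences were -2.37 ± 0.31 (adjusted p = 3.40e-05) for Col-0, -2.28 ± 0.29 (adjusted p = 1.35e-05) for the mutant and -2.05 ± 0.29 (adjusted p = 3.97e-05) for OE-6, each with its SE. LHCB1.4, another gene of the major antenna, fell in all 3 lines, by log2 differences of -2.05, -2.36 and -1.07. LHCB3 changed by -1.25, -1.09 and -1.08 in the same order of lines, LHCB5 by -0.84, -0.92 and -0.78 and LHCB6 by -1.10, -1.32 and -1.21. Of the CP29 genes, LHCB4.2 changed by -1.13, -1.24 and -0.91 and LHCB4.1 by -0.47, -0.39 and -0.56, with adjusted p = 0.0385 in Col-0 and 0.0487 in the mutant for LHCB4.1. The LHCB4.1 calls in Col-0 and the mutant were lost under 8 and 14 of 26 alternatives, which are mostly single libraries left out, with adjusted p up to 0.230 and 0.183.

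LHCB4.3 (AT2G40100) encodes a further form of CP29 known for its low level in ordinary light. It was measured at 11.7 and 9.72 CPM at 0 h and 16.9, 15.2 and 22.5 CPM at 24 h in Col-0, 14.0, 14.2 and 17 and then 18.8, 22.9 and 12.2 in the mutant, and 17.2, 13.7 and 14.0 and then 26.7, 11 and 17.4 in OE-6. In Col-0 all 3 values of 24 h lay above both values of 0 h, and in the other lines the times overlapped. On the log2 scale it differed by 0.76 ± 0.32 (adjusted p = 0.0630) for Col-0, 0.26 ± 0.28 (adjusted p = 0.447) for the mutant and 0.30 ± 0.28 (adjusted p = 0.383) for OE-6, so the gene was not called in any line. In Col-0 it was called higher under 6 of 27 alternatives, with adjusted p from 0.00623 to 0.272 over them, DESeq2 giving 0.0354 and the model of only the groups compared 0.00623. In OE-6 it was called under 1 of 27, with replicate 3 of the mutant and replicate 2 of OE-6, both of 24 h, left out together, at a log2 difference of 0.56 (adjusted p = 0.0271, range 0.0271 to 0.819).

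The levels per kilobase of transcript place these genes beside each other. In Col-0 at 0 h LHCB1.3 stood highest of the 47, at 19284 CPM per kb, followed by LHCB1.5 at 10897 and LHCB1.2 at 5558 CPM per kb. LHCB4.3 stood lowest, at 8.12 CPM per kb, below LHCA5 at 160.0 and LHCA6 at 175 CPM per kb. After 24 h LHCB1.3 and LHCB1.5 were still the highest, at 13555 and 5329 CPM per kb. LHCB2.3, at 59.4 CPM per kb, was then next above LHCB4.3 at 13.8.

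The 250 bases upstream of 4 gene starts are shown, in the TAIR10.1 assembly with RefSeq gene starts and read 5′ to 3′ on the gene's strand. Called lower in every line were LHCB2.3, with the smallest p of its complex, and ATPD, with the smallest p of the 47 in Col-0. The 2 called lower in none were LHCB4.3 and PSBS, although the OE-6 values of PSBS, given below, were all lower at 24 h than at 0 h. Capitals mark matches, on either strand, to the G-box CACGTG, the I-box GATAAG, the element CCAATC and the TATA box TATAAA.
LHCB2.3, chr3:10255656-10255905, plus strand: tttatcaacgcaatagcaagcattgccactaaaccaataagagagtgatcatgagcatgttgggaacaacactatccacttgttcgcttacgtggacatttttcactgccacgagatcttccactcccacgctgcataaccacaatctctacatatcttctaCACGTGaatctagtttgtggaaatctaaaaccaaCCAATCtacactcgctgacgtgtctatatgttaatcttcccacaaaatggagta
ATPD, chr4:6100464-6100713, plus strand: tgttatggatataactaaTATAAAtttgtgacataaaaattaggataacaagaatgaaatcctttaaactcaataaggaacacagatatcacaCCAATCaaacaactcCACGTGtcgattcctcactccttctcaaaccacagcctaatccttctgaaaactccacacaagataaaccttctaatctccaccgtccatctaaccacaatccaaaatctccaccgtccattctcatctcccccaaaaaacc
LHCB4.3, chr2:16745378-16745627, plus strand: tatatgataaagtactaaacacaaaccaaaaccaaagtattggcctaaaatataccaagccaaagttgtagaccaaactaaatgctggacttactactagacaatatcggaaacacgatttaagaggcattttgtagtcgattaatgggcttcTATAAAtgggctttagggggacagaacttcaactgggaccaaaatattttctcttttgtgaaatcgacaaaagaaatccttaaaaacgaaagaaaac
PSBS, chr1:16869971-16870220, plus strand: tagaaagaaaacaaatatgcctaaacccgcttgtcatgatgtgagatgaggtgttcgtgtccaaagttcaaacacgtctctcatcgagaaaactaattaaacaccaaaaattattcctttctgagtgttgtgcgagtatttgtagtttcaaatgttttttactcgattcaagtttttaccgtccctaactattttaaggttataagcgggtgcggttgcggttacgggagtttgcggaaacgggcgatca

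The LHCB2.3 window holds a G-box 88 bases and a CCAATC element 54 bases before the gene start. That of ATPD holds a TATA box match at 232 bases, a CCAATC element at 157 bases and a G-box at 142 bases. In the LHCB4.3 window the TATA box was the one match and in the PSBS window there was none. Over all 47 genes a G-box was found in 9 windows (19.1%) against 6.49% of the 27443 windows of nuclear protein-coding genes, and a CCAATC element in 14 (29.8%) against 10.2%. The I-box was found in 11 (23.4%) against 12.3%, and TATAAA in 22 (46.8%) against 47.3%. The CCAATC element lay in 7 of 14 LHCB and 3 of 6 LHCA windows and in 0 of 12 photosystem I windows. All 9 genes with a G-box were called lower in Col-0, with a median log2 difference of -0.99, as were 35 of the other 38, with a median of -0.79. All 14 with CCAATC were called lower there, with a median of -1.07, as were 30 of the other 33, with a median of -0.79. The I-box genes gave values like those of the G-box, with 11 of 11 called lower and medians of -0.99 with and -0.79 without, and TATAAA gave -0.80 with and -0.84 without. In OE-6, 13 of 14 genes with CCAATC were called lower and the medians were -0.89 with and -0.79 without. These are matches of letters and are given as a description.

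Several antenna genes are near-identical copies, and the submitters' counting could divide reads between them, so single copies are uncertain. LHCB1.2, LHCB1.1 and LHCB1.3 lie side by side on chromosome 1 (AT1G29910, AT1G29920 and AT1G29930, at chr1:10472280-10473502, chr1:10474656-10475969 and chr1:10477885-10479114 in TAIR10.1), with 1153 and 1915 bases between them. LHCB1.5 and LHCB1.4 lie on chromosome 2 (chr2:14522524-14523568 and chr2:14524607-14525918), 1038 bases apart on opposite strands. The coding sequences of LHCB1.1 to LHCB1.3 were 95.6% to 96.4% identical with shared runs of 74 to 119 bases, and LHCB1.4 and LHCB1.5 were 91.4% identical. LHCB2.1 and LHCB2.2 were 96.6% identical with a shared run of 152 bases, and LHCB2.3 was 84.4% to 85.5% identical to them. The last 90 coding bases of each copy, a stretch that varied at fewer positions in each family than the first 90, are shown with the bases that differ among the copies of a family in capitals.
LHCB1.1: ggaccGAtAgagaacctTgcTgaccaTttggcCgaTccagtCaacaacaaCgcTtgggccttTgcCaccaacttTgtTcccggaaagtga
LHCB1.2: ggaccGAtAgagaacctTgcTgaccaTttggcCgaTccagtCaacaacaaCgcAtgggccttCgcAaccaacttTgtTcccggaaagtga
LHCB1.3: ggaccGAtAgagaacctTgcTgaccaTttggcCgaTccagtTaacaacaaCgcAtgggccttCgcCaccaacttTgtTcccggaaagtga
LHCB1.4: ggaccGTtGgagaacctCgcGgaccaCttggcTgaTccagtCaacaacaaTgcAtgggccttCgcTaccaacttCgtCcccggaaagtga
LHCB1.5: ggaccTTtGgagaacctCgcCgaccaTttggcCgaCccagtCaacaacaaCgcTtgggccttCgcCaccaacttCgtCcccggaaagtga
LHCB2.1: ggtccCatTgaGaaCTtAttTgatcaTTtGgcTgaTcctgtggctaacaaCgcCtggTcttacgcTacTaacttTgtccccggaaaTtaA
LHCB2.2: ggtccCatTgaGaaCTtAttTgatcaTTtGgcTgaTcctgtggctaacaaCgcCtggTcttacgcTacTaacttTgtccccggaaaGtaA
LHCB2.3: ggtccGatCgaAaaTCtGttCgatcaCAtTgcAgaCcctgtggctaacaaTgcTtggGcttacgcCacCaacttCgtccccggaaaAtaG

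Over these 90 bases LHCB1.1 differed from LHCB1.2 and from LHCB1.3 at 3 bases each and LHCB1.2 from LHCB1.3 at 2, whereas LHCB1.4 differed from LHCB1.5 at 8. LHCB2.1 and LHCB2.2 differed at 1 base and LHCB2.3 from both at 20. The first 90 coding bases, set position by position without gaps, varied at 38 positions among the LHCB1 copies, against 15 in the last 90, and at 25 among the LHCB2 copies, against 20. LHCB2.1 and LHCB2.2 differed at 12 of those first bases. Copies were therefore also summed, which does not depend on how reads were divided among the copies summed. It can still depend on whether shared reads were kept, which is not given. The sum of LHCB1.1 to LHCB1.3 leaves out LHCB1.4 and LHCB1.5 and can also depend on reads shared with those.

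The sum of LHCB1.1, LHCB1.2 and LHCB1.3 was 31259 and 35577 CPM at 0 h and 22470.2, 21216 and 16945 CPM at 24 h in Col-0, 28646, 27674 and 30411 and then 19526, 17780.1 and 18424 in the mutant, and 33944, 30806 and 31056 and then 17263, 27439 and 23690.4 in OE-6. Times did not overlap in any line. Among the 3 copies, LHCB1.2 had the largest differences, -1.5, -1.5 and -1.34 on the log2 scale in Col-0, the mutant and OE-6. LHCB1.3 changed by -0.51 ± 0.18 (adjusted p = 0.0334) in Col-0 and -0.52 ± 0.17 (adjusted p = 0.0140) in the mutant, and its difference in OE-6, -0.28 ± 0.17 (adjusted p = 0.169), was not called. Its values were 22819 and 24619.6 CPM at 0 h and 18215, 17465 and 14339 CPM at 24 h in Col-0, 19398, 19233 and 21355 and then 15263, 13814 and 12696 in the mutant, and 23647, 21836 and 22064 and then 13868, 23009 and 18868 in OE-6. OE-6 replicate 2 of 24 h lay within the values of 0 h. LHCB1.1 was measured at 2243 and 3560.4 CPM at 0 h and 1354, 1124 and 904 CPM at 24 h in Col-0, 3303, 3027 and 3195 and then 2165, 1821 and 3891 in the mutant, and 3202, 2495 and 2466 and then 1476, 1354 and 1905 in OE-6. In the mutant replicate 3 of 24 h lay above all values of 0 h, and the log2 differences were -1.36 ± 0.28 (adjusted p = 0.00122) for Col-0, -0.27 ± 0.26 (adjusted p = 0.381) for the mutant and -0.79 ± 0.26 (adjusted p = 0.0181) for OE-6. Without replicate 3 of the mutant at 24 h the difference in that line was -0.67 (adjusted p = 0.0192, range over its alternatives 0.0126 to 0.843). The LHCB1.3 call in Col-0 was lost under 5 of 26 alternatives, with adjusted p up to 0.166, and that in the mutant under 1, without its 0 h replicate 3 (0.0518). In OE-6 LHCB1.3 was called without OE-6 24 h replicate 2, at -0.46 (adjusted p = 0.0213, range over 26 alternatives 0.0138 to 0.539). The LHCB1.1 call in OE-6 was lost under 3 of 26, with adjusted p up to 0.0677.

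All 5 LHCB1 copies summed changed by -0.87 ± 0.19 (adjusted p = 0.00149) for Col-0, -0.79 ± 0.17 (adjusted p = 0.00106) for the mutant and -0.59 ± 0.17 (adjusted p = 0.00874) for OE-6 on the log2 scale, and the 3 LHCB2 copies by -1.62 ± 0.21 (adjusted p = 2.94e-05) for Col-0, -1.37 ± 0.20 (adjusted p = 3.26e-05) for the mutant and -1.43 ± 0.20 (adjusted p = 2.68e-05) for OE-6. Within the LHCB1 sum the share of LHCB1.3 went from 48.4% to 62.5% in Col-0, 46.5% to 55.9% in the mutant and 47.8% to 59.2% in OE-6, and that of LHCB1.4 from 8.70% to 3.81% in Col-0, 7.75% to 2.59% in the mutant and 8.43% to 5.94% in OE-6. Within LHCB2 the share of LHCB2.3 went from 10.6% to 6.09% in Col-0, 11.7% to 6.44% in the mutant and 10.6% to 6.80% in OE-6. LHCB4.1 took 68.3% of the LHCB4.1 and LHCB4.2 sum in Col-0 at 0 h and 77.6% at 24 h. These shares are means over libraries and were not tested, and the plot of copies by library gives the levels behind them. As measured, the copy at the highest level within LHCB1 took a larger share after 24 h in all 3 lines. Such shares depend on how reads were divided among the copies.

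**Figure D3:**
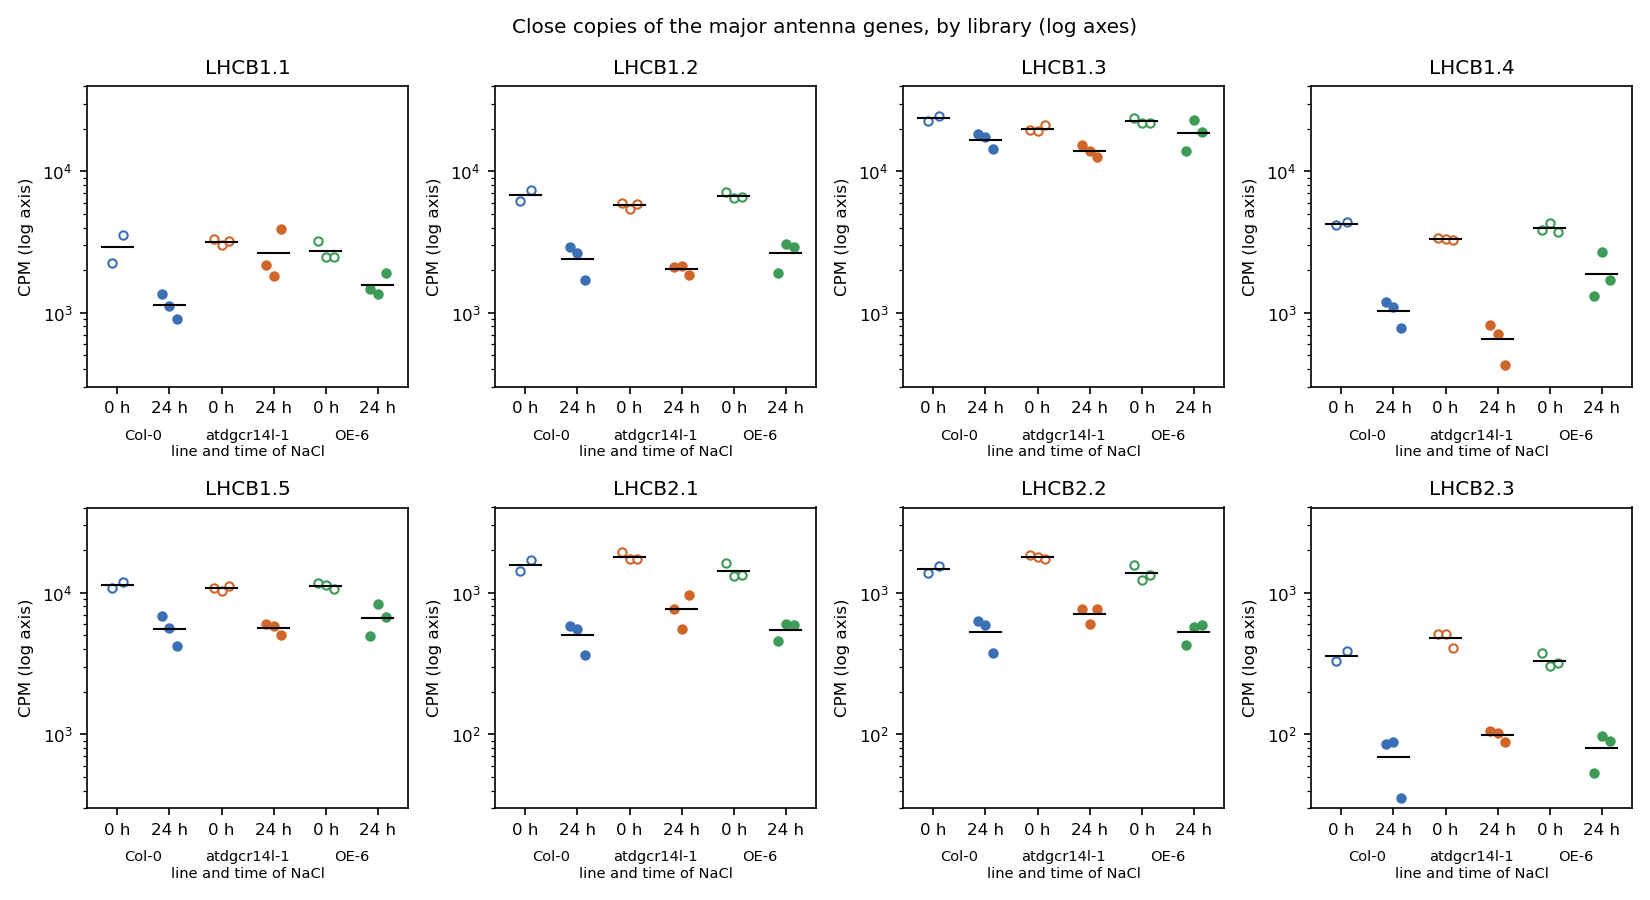
Levels of the LHCB1 and LHCB2 copies in every library, in CPM on log axes, by line and time; open symbols are 0 h, filled symbols are 24 h and the black line is the group mean. LHCB1.3 is the highest in every group, and LHCB1.1 in atdgcr14l-1 at 24 h has 1 library, at 3891 CPM, above the values of 0 h.

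All 6 genes of the photosystem I antenna fell in all 3 lines, with median log2 differences of -0.97 in Col-0, -1.06 in the mutant and -0.81 in OE-6. LHCA1 to LHCA4 encode the belt on one side of photosystem I, and LHCA5 and LHCA6 are known as linkers to the NDH complex. LHCA1 (AT3G54890, chr3:20339504-20341176) had the smallest p of the group. It stood at 5298 and 5902 CPM at 0 h and 2547, 2262 and 1885 CPM at 24 h in Col-0, 5719, 5599 and 5666 and then 2400.3, 2376 and 1866 in the mutant, and 6045, 5456 and 5959 and then 1951, 3052 and 2678 in OE-6. The times were separated in every line, and the log2 difference was -1.33 ± 0.18 (adjusted p = 3.31e-05) for Col-0, -1.35 ± 0.16 (adjusted p = 6.63e-06) for the mutant and -1.18 ± 0.16 (adjusted p = 2.69e-05) for OE-6. LHCA2 (AT3G61470) had the largest p, with levels of 4415 and 4809.6 CPM at 0 h and 3647, 3199 and 2866 CPM at 24 h in Col-0, 4494, 4335 and 4313 and then 3241, 3160.0 and 2311 in the mutant, and 5086, 4674 and 4622 and then 2597, 4255 and 3612 in OE-6. OE-6 replicate 2 of 24 h was again the highest of its group. The log2 difference was -0.51 ± 0.19 (adjusted p = 0.0367) for Col-0, -0.59 ± 0.17 (adjusted p = 0.00773) for the mutant and -0.46 ± 0.17 (adjusted p = 0.0323) for OE-6. The LHCA2 call was lost under 5 of 27 alternatives in Col-0 and 6 of 27 in OE-6, with adjusted p up to 0.180 and 0.122. LHCA3 changed by -1.07, -1.21 and -0.87 in the same order of lines, LHCA4 by -0.90, -1.03 and -0.74, LHCA5 by -0.53, -0.68 and -0.63 and LHCA6 by -1.04, -1.10 and -1.21. LHCA5 in Col-0 was called under 23 of its 27 alternatives.

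Of the 10 photosystem II genes, 8 were called lower in Col-0, 9 in the mutant and 8 in OE-6. All 10 had a log2 difference below 0 in each line, with medians of -0.69, -0.88 and -0.71. PSBO, PSBP and PSBQ proteins shield the manganese cluster that splits water. PSBQ1 (AT4G21280) had the smallest p of the group, at 1510.4 and 1674 CPM at 0 h and 929, 778 and 796 CPM at 24 h in Col-0, 1619.6, 1535 and 1545 and then 838, 802 and 572 in the mutant, and 1727, 1656 and 1609.8 and then 635, 863 and 820.2 in OE-6. No value of 24 h reached the 0 h values of its line. Its log2 differences were -0.93 ± 0.16 (adjusted p = 0.000276) for Col-0, -1.09 ± 0.15 (adjusted p = 1.88e-05) for the mutant and -1.11 ± 0.15 (adjusted p = 1.94e-05) for OE-6. PSBQ2 changed by -1.08, -1.43 and -1.17, PSBP1 by -0.84, -0.95 and -0.86, PSBO2 by -0.74, -0.92 and -0.86 and PSBO1 by -0.52, -0.60 and -0.57. The small subunits PSBW, PSBY and PSBX changed by -0.64, -0.83 and -0.59, by -0.75, -0.92 and -0.84 and by -0.51, -0.61 and -0.48. All of these were called in all 3 lines. The PSBX call in Col-0 was lost under 7 of 27 alternatives, with adjusted p up to 0.216, and that of PSBO1 under 4 of 26, up to 0.127. In OE-6 the PSBX call was lost under 4 of 27, with adjusted p up to 0.105, and its difference was -0.28 (0.0841) without OE-6 24 h replicate 1. The PSBO1 call in OE-6 was lost in the model of only the groups compared (0.0525, range over 26 alternatives 5.80e-05 to 0.0525), and that of PSBW in Col-0 under 1 of 27 (0.0612).

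PSBR and PSBS were the photosystem II genes not called lower in every line, and the plot of LHCB4.3, PSBS and PSBR beside ATPD gives their levels. Whether their changes differed from those of other genes was not tested. PSBR (AT1G79040), a small subunit needed for stable binding of the water-splitting proteins, was at 4062 and 4078 CPM at 0 h and 3364, 3165 and 2954 CPM at 24 h in Col-0, 4008, 3873 and 4092 and then 3358, 2870.3 and 2493 in the mutant, and 4171, 3945 and 4696 and then 2506, 4183 and 3883 in OE-6. Its 24 h values lay below those of 0 h in Col-0 and the mutant, and 1 OE-6 value of 24 h lay within the 0 h range. On the log2 scale it differed by -0.36 ± 0.18 (adjusted p = 0.117) for Col-0, -0.46 ± 0.17 (adjusted p = 0.0276) for the mutant and -0.28 ± 0.17 (adjusted p = 0.168) for OE-6, so that it was called lower in the mutant and in neither other line. That call was lost under 5 of 27 alternatives, and in Col-0 and OE-6 it was gained under 2 of 27 each, with a difference of -0.42 (adjusted p = 0.0469, range 0.0290 to 0.604) in OE-6 without its 24 h replicate 2. PSBS (AT1G44575, chr1:16870221-16873427), the protein that senses lumen acidity and switches excess light energy to heat, was at 1122 and 1395 CPM at 0 h and 1176, 1084 and 1307 CPM at 24 h in Col-0, 1579.8, 1487 and 1470.0 and then 1481, 1519.8 and 1257 in the mutant, and 1446, 1209 and 1345 and then 942, 1099.8 and 1205 in OE-6. The times overlapped in Col-0 and the mutant and were separated in OE-6. The log2 difference was -0.08 ± 0.14 (adjusted p = 0.666) for Col-0, -0.09 ± 0.13 (adjusted p = 0.561) for the mutant and -0.30 ± 0.13 (adjusted p = 0.0571) for OE-6. In OE-6 PSBS was called lower under 7 of 27 alternatives, 4 of them other scalings, filters or tools, with adjusted p from 0.0187 to 0.187.

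**Figure D4:**
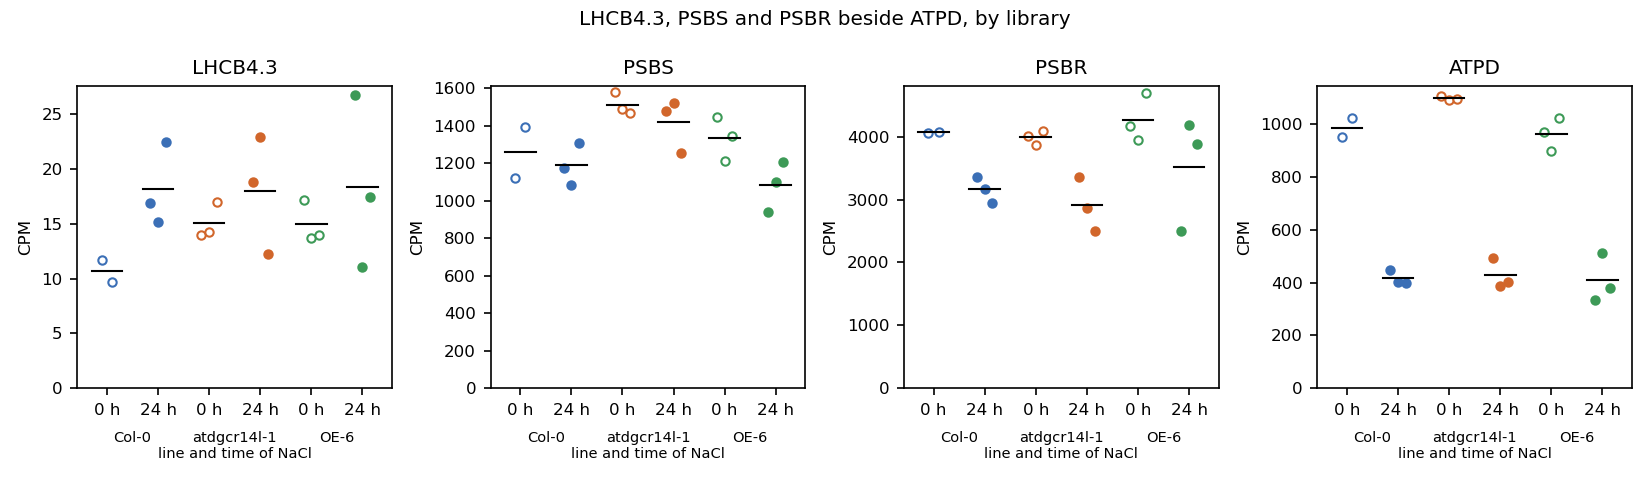
Levels of LHCB4.3, PSBS and PSBR, beside ATPD, in every library, in CPM, by line and time; open symbols are 0 h, filled symbols are 24 h and the black line is the group mean. LHCB4.3 and PSBS were called lower in no line, OE-6 replicate 2 of 24 h reached the 0 h values for PSBR, and the ATPD values of 24 h lie below those of 0 h in every line.

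All 12 photosystem I genes fell in all 3 lines, with medians of -0.79, -0.95 and -0.79. PSAN (AT5G64040), a lumen subunit that helps plastocyanin dock, had the smallest p, at 1717 and 1818 CPM at 0 h and 944, 755 and 686 CPM at 24 h in Col-0, 1836, 1769 and 1658 and then 775, 659 and 521 in the mutant, and 1758, 1617 and 1933 and then 575, 1005 and 832 in OE-6. The times were separated in each line. Its log2 differences were -1.15 ± 0.21 (adjusted p = 0.000384) for Col-0, -1.43 ± 0.19 (adjusted p = 1.69e-05) for the mutant and -1.14 ± 0.19 (adjusted p = 0.000146) for OE-6. PSAL (AT4G12800), through which phosphorylated antenna docks in state transitions, had the largest p and was at 3062 and 3457 CPM at 0 h and 2607, 2274 and 1957 CPM at 24 h in Col-0, 3377, 3117 and 3349.7 and then 2417, 2293 and 1746 in the mutant, and 3669, 3411 and 3306 and then 1680.5, 2709 and 2333 in OE-6. Here too the times did not overlap, and the log2 difference was -0.52 ± 0.19 (adjusted p = 0.0343) for Col-0, -0.61 ± 0.17 (adjusted p = 0.00644) for the mutant and -0.63 ± 0.17 (adjusted p = 0.00577) for OE-6. The PSAL call in Col-0 was lost under 5 of 27 alternatives, with adjusted p up to 0.197. The Col-0 calls of PSAE1, PSAE2 and PSAH1 were lost under 1 of 26 each, without Col-0 0 h replicate 2, with adjusted p = 0.0744, 0.0531 and 0.0509. The other 10 genes encode the ferredoxin-docking ridge (PSAD1, PSAD2, PSAE1 and PSAE2), the plastocyanin-docking PSAF, PSAG and PSAK on the antenna sides, and PSAH1, PSAH2 and PSAO. Their log2 differences ran in Col-0 from -0.69 for PSAE2 to -0.99 for PSAH2. In the mutant they ran from -0.81 for PSAE2 to -1.14 for PSAH2, and in OE-6 from -0.57 for PSAD2 to -0.95 for PSAH2.

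The 3 electron carrier genes and both ATP synthase genes fell in every line. PETE1 (AT1G76100) encodes a plastocyanin, and its levels were 227 and 273 CPM at 0 h and 162, 148 and 132 CPM at 24 h in Col-0, 237, 233 and 243 and then 173, 153 and 172 in the mutant, and 253, 235 and 243 and then 143, 129 and 185 in OE-6. On the log2 scale it differed by -0.76 ± 0.14 (adjusted p = 0.000351) for Col-0, -0.52 ± 0.12 (adjusted p = 0.00220) for the mutant and -0.68 ± 0.12 (adjusted p = 0.000314) for OE-6. PETC (AT4G03280), the Rieske iron-sulphur protein of cytochrome b6f, was at 837 and 842 CPM at 0 h and 597, 549.5 and 599 CPM at 24 h in Col-0, 883, 827 and 829 and then 655, 593 and 448 in the mutant, and 881, 821 and 901 and then 458, 671 and 609 in OE-6, and changed by -0.53, -0.58 and -0.58. No times overlapped for PETE1 or PETC. PETE2, the plastocyanin gene at the higher level, changed by -0.81, -0.95 and -0.76. ATPD, the delta subunit that holds the head of the enzyme to its stalk (AT4G09650, chr4:6100714-6101864), was at 950.1 and 1021 CPM at 0 h and 449, 402 and 398 CPM at 24 h in Col-0, 1105, 1091 and 1096 and then 492, 387 and 401 in the mutant, and 968, 897 and 1024 and then 334, 513 and 379 in OE-6. All 24 h values lay below all 0 h values. The log2 difference was -1.24 ± 0.15 (adjusted p = 1.71e-05) for Col-0, -1.36 ± 0.14 (adjusted p = 1.62e-06) for the mutant and -1.24 ± 0.14 (adjusted p = 4.91e-06) for OE-6. ATPC1 (AT4G04640), the gamma subunit that turns within the head, was at 1423 and 1451 CPM at 0 h and 872, 802 and 823 CPM at 24 h in Col-0, 1453, 1469.9 and 1404 and then 854, 709.6 and 625 in the mutant, and 1491, 1333 and 1363 and then 637, 1020.5 and 738 in OE-6. It changed by -0.79 ± 0.17 (adjusted p = 0.00131) for Col-0, -0.98 ± 0.15 (adjusted p = 6.23e-05) for the mutant and -0.81 ± 0.15 (adjusted p = 0.000393) for OE-6, and its times did not overlap in any line. The PETC call in Col-0 was lost in 2 of 27 alternatives, those that left out 1 or the other library of Col-0 at 0 h, with adjusted p up to 0.0670.

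The plot of differences between lines gives the values at 24 h. Between lines at the same time, few of these genes were called. At 0 h edgeR called 0 of 47 between the mutant and Col-0, where 1.45% of all genes were called higher and 0.573% lower, and 0 were under an unadjusted p of 0.05. It called 0 of 47 between OE-6 and the mutant at 0 h (1.48% of all genes higher and 3.09% lower, and 0 members at an unadjusted p under 0.05). DESeq2 also called 0 in both, and a model of only the groups compared called 3 in the first, LHCB2.2 and LHCB4.3 higher and LHCB1.4 lower, and 6 in the second. Between OE-6 and Col-0, 0 of 47 were called at 0 h (0.0047% of all genes higher, 0.0094% lower) and 0 at 24 h (0.0047% higher, 0% lower). At an unadjusted p under 0.05 these counts were 0 and 1, and DESeq2 called 0 in both.

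At 24 h 1 of 47 was called between the mutant and Col-0, where 7.71% of all genes were called higher and 4.67% lower. This was LHCB1.1, whose values given above were lower in Col-0 than in the mutant with no overlap, as was so for 16.1% of all genes in that direction. The difference on the log2 scale was 1.22 ± 0.26 (adjusted p = 0.00905). It was lost in the model of only the groups compared (1.23, adjusted p = 0.0682, range over 26 alternatives 4.32e-05 to 0.0682). The 5 LHCB1 copies summed differed by -0.11 ± 0.17 (adjusted p = 0.727). The median over the 47 genes was -0.12, with 37 below 0, beside -0.01 over all genes tested. That median moved with single libraries and was -0.02 without replicate 3 of the mutant at 24 h, -0.20 without Col-0 24 h replicate 3 and -0.22 without replicate 1 of the mutant at 24 h. LHCB2.1 (0.61 ± 0.20, adjusted p = 0.0627) and LHCB1.4 (-0.66 ± 0.25, adjusted p = 0.0948) were not called. The LHCB2 copies summed differed by 0.51 ± 0.19 (adjusted p = 0.0939), also not called. LHCB2.1 was called higher without replicate 2 of the mutant at 24 h or without OE-6 24 h replicate 1, and LHCB1.4 lower without OE-6 24 h replicate 2. DESeq2 called both of these beside LHCB1.1.

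Between OE-6 and the mutant at 24 h 1 of 47 was called, where 5.17% of all genes were called higher and 6.79% lower. This was LHCB1.4, measured at 4168 and 4350.3 CPM at 0 h and 1195, 1099.5 and 783 CPM at 24 h in Col-0, 3384, 3304 and 3289.8 and then 815, 703 and 428 in the mutant, and 3859, 4333 and 3701 and then 1305, 2667 and 1708 in OE-6. At 24 h every OE-6 value lay above every value of the mutant, as was so for 10.2% of all genes, and OE-6 replicate 2 was the highest. The difference on the log2 scale was 1.55 ± 0.26 (adjusted p = 0.00239). It was lost in the model of only the groups compared (1.58, adjusted p = 0.197, range over 26 alternatives 2.48e-08 to 0.197), and the LHCB1 sum differed by 0.33 ± 0.17 (adjusted p = 0.199). The LHCB2 sum differed by -0.44 ± 0.19 (adjusted p = 0.143). PSBS (-0.39 ± 0.13, adjusted p = 0.0582), LHCB1.1 (-0.73 ± 0.26, adjusted p = 0.0754) and LHCA3 (0.48 ± 0.17, adjusted p = 0.0754) were not called, although the PSBS values did not overlap, as was so for 12% of all genes in that direction. DESeq2 called all 3 (adjusted p = 0.0101, 0.0250 and 0.0218, in that order) and also LHCB1.3 (0.0333). LHCA3 was also called under the filter at a mean of 5 CPM (0.0441). Over their alternatives the adjusted p ran from 0.0101 to 0.401 for PSBS, 0.0242 to 0.600 for LHCB1.1 and 0.00920 to 0.538 for LHCA3. This comparison shares the libraries of the mutant at 24 h with the one before.

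The count in this comparison depended on the library OE-6 24 h replicate 1, the lowest of its group for 44 genes. Without it 16 of 47 were called higher in OE-6 than in the mutant, 5 LHCB, 2 LHCA, 3 photosystem II and 6 photosystem I genes, beside 9.11% of all genes higher and 10.5% lower. The median over the 47 was then 0.37, against 0.21 with all libraries, 0.09 without replicate 3 of the mutant at 24 h and 0.05 without OE-6 24 h replicate 2. With replicate 3 of the mutant and replicate 2 of OE-6, both of 24 h, left out together 1 was called higher and the median was -0.05, so that its direction turned. Without replicate 2 of the mutant at 24 h, LHCB1.1 and LHCB2.1 were called lower, and without its replicate 3 PSBS was.

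**Figure D5:**
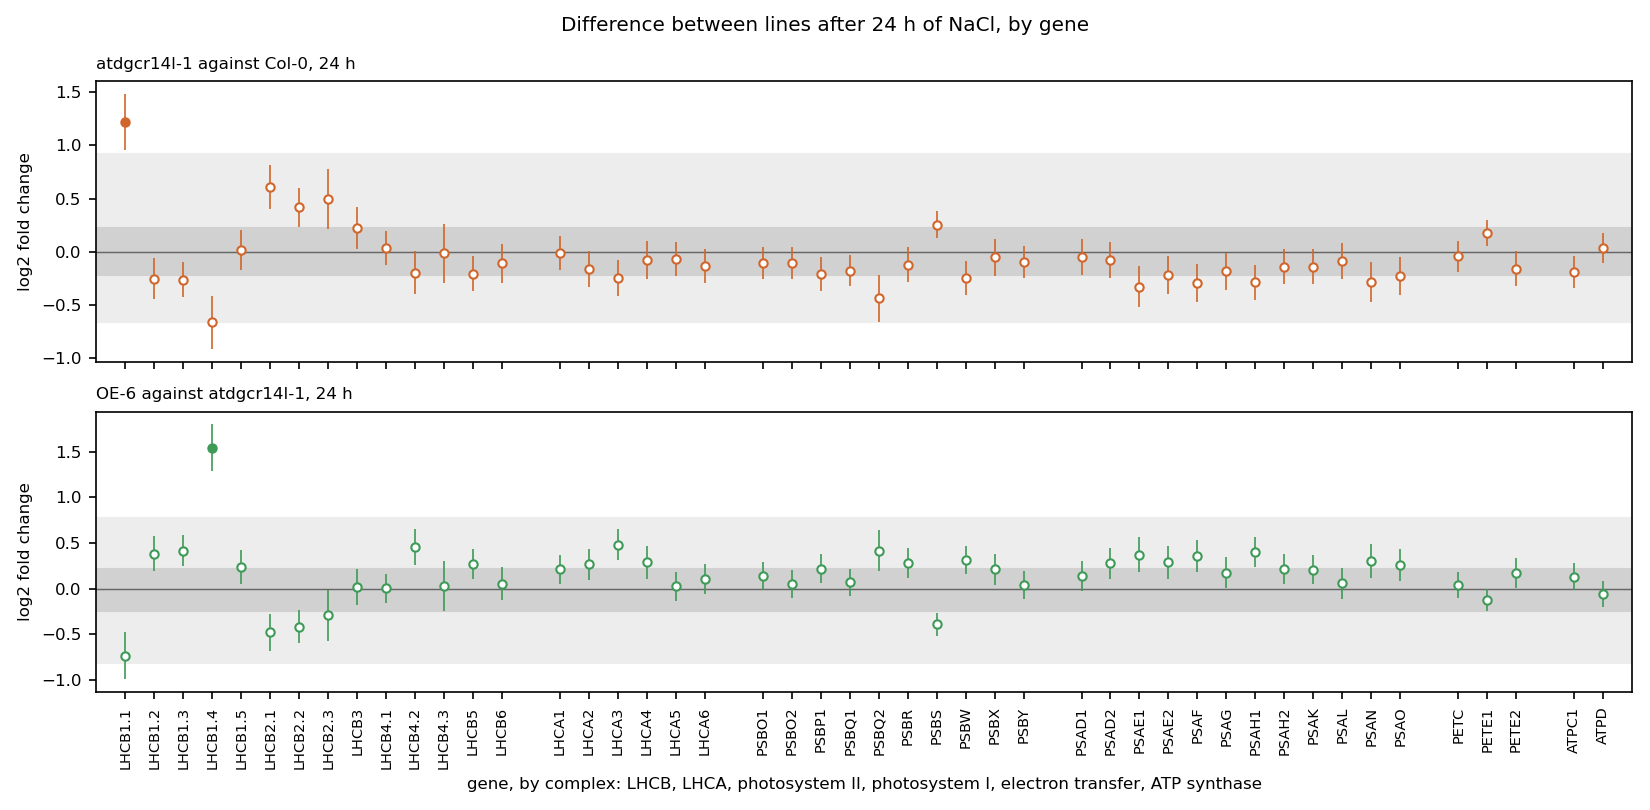
Log2 difference between lines at 24 h for each of the 47 genes, by complex; points are edgeR estimates with standard errors and filled points were called. The dark grey band holds the 25th to 75th percentile of all genes tested and the light band the 5th to 95th; LHCB1.1 (atdgcr14l-1 above Col-0) and LHCB1.4 (OE-6 above atdgcr14l-1) are the filled points.

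Whether the change with salt differed between lines was tested as an interaction. edgeR called 0 of 47 in each of the 3 interactions. Of all genes, 0.0047% were called higher and 0% lower between the mutant and Col-0, 0% and 0.0094% between OE-6 and the mutant, and 0% in either direction between OE-6 and Col-0. At an unadjusted p under 0.05 each interaction held 1 member. These were LHCB1.1 for the mutant minus Col-0 (1.09 ± 0.38, adjusted p = 0.460), and LHCB1.4 for OE-6 minus the mutant (1.29 ± 0.35, adjusted p = 0.252) and for OE-6 minus Col-0 (0.99 ± 0.37, adjusted p = 0.943). DESeq2 called 1 member, LHCB1.4, in OE-6 minus the mutant (adjusted p = 0.0258) and 0 in the other interactions. A salt effect called in 1 line and missed in another is therefore not shown to differ between them.

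Other genes that serve the same complexes were read from lists chosen by function. Of 23 genes of chlorophyll synthesis, 20 were called lower with salt in Col-0, 21 in the mutant and 21 in OE-6, with 0 called higher in any line. GSA2, which makes the first committed precursor aminolevulinate, had the smallest p in Col-0, with a log2 difference of -1.72 ± 0.14 (adjusted p = 4.39e-07). All 5 genes for inserting antenna proteins into the thylakoid membrane fell in all 3 lines. The log2 difference of CPFTSY, the receptor of the chloroplast signal recognition particle, was -0.65 ± 0.08 (adjusted p = 1.07e-05) in Col-0. Of 10 regulators, 4 were called lower and 1 higher in Col-0, and 7 and 1 in the mutant. In OE-6, 5 were called lower and 2 higher. The log2 difference was below 0 for 8 of the 10 in each line. SIG2, a sigma factor of the plastid RNA polymerase, changed by -1.02 ± 0.10 (adjusted p = 1.54e-06) in Col-0, and HY5, a transcription factor of light signalling, by 0.84 ± 0.17 (adjusted p = 0.000815), on the log2 scale.

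Of 8 genes of antenna regulation, photoprotection and photosystem repair, 4 were called lower in Col-0, 7 in the mutant and 2 in OE-6. Their log2 differences were below 0 for 8, 8 and 7 of the 8, and 0 were called in any interaction between lines. VDE, which converts violaxanthin to zeaxanthin, changed by -0.79 ± 0.14 (adjusted p = 0.000260) in Col-0. Of 11 further thylakoid genes outside the 47, 5 were called lower and 1 higher in Col-0 and 7 and 1 in the mutant. In OE-6, 8 were called lower and 2 higher. Log2 differences were below 0 for 8, 9 and 9 of these 11 genes in the same order of lines. Among them PSB28, an assembly factor of photosystem II, changed by -0.90 ± 0.12 (adjusted p = 2.51e-05) in Col-0 and PGRL1B, of cyclic electron flow, by 0.59 ± 0.13 (adjusted p = 0.00162). Of 7 stress-type relatives of the antenna proteins, 4 were called lower and 2 higher in each line. Log2 differences were below 0 for 5 of the 7 in each line. OHP2, a protein with a single helix of photosystem II assembly, changed by -0.73 ± 0.12 (adjusted p = 0.000244) in Col-0. ELIP1, an early light-induced protein that binds pigment under stress, was at 0.167 and 0.233 CPM at 0 h and 4.09, 6.71 and 3.29 CPM at 24 h in Col-0, 0.539, 0.442 and 0.298 and then 3.04, 2.84 and 3.42 in the mutant, and 0.379, 0.111 and 0.375 and then 1.91, 4.85 and 7.05 in OE-6. Its values of 24 h lay above those of 0 h in each line, and it rose by 4.54 ± 0.62 (adjusted p = 4.35e-05) on the log2 scale in Col-0. The rise was 2.86 in the mutant and 3.99 in OE-6. These differences rest on very low levels at 0 h, so their size is imprecise. Over all genes tested the shares were 21.4% lower and 25.4% higher in Col-0, 26.7% and 31.3% in the mutant, and 25.7% and 29.5% in OE-6, which the 2 of 8 called lower in OE-6 among the regulation and repair genes did not exceed.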

How the data were processed

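RNA was enriched for poly(A), made into strand-marked libraries with dUTP and sequenced on DNBSEQ, per the labels' protocols. The authors deposited estimated counts per gene, whole numbers as deposited, and the submitters' processing notes name DESeq2 2.11.40.7, StringTie 2.1.7 and Bowtie2 2.4.5. What each tool did, with which build and counting strand, is not given in the sources used here. Of 27655 genes, filterByExpr kept 21282. Counts were scaled by TMM and tested with edgeR 4.0.16 (quasi-likelihood, robust, limma 3.58.1, R 4.3.3) in 1 model of 6 groups, with Benjamini-Hochberg adjustment over all genes tested and a threshold of 0.05. CPM uses the TMM-scaled library sizes. Log2 differences have SEs from the F statistic. DESeq2 1.42.0 was an alternative. Total counts per library mainly limit the precision of genes at very low levels, such as ELIP1 at 0 h. Organelle genes held at most 0.0583% of counts. The scripts were tested on simulated data. Positions and sequences came from RefSeq's TAIR10.1 by locus tag (47 of 47 matched) with Python 3.11.15. Every library enters the model.

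The members, lists and tests were chosen with earlier results of these data known. Values in every library are given for the gene of smallest and of largest p in each complex with salt in Col-0, for genes called lower in no line and for genes called between lines, beside the LHCB1.1 to LHCB1.3 copies. PSBR was added after its values were seen, as it was called lower in 1 line. In the other lists, the called gene of smallest p in each direction for salt in Col-0 is named, and up to 4 called between lines.

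The alternatives were other scalings, filters and tools, a model of only the groups compared, summed copies, a replicate block and each library left out.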

Additional observations from a re-analysis of the deposited data

How the results depend on the processing

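No count of calls and no single gene that was called changed direction under any alternative run. The median difference of the 47 genes between OE-6 and atdgcr14l-1 at 24 h turned from 0.21 to -0.05 with 2 libraries left out together. The counts called lower with salt stayed within 1.5 times of 44, 44 and 43 under all of them; with each library left out in turn they ran from 32 to 45 in Col-0, where Col-0 0 h replicate 2 gave the lowest, from 41 to 44 in atdgcr14l-1 and from 40 to 44 in OE-6. Counts called higher ran from 0 to 1 in Col-0. Between atdgcr14l-1 and Col-0 at 24 h the same ranges were 0 to 1 lower and 1 to 2 higher. Between OE-6 and atdgcr14l-1 at 24 h they were 0 to 2 lower and 1 to 16 higher, with 16 without OE-6 24 h replicate 1. Where a group was left with 1 library, that library was assumed to vary like the other groups.

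The model of only the groups compared called LHCB4.3 higher with salt in Col-0 (1), 2 higher and 1 lower between atdgcr14l-1 and Col-0 at 0 h and 0 higher at 24 h, and 2 higher and 4 lower between OE-6 and atdgcr14l-1 at 0 h and 0 higher at 24 h. DESeq2 called 1 higher with salt in Col-0, 2 higher and 1 lower between atdgcr14l-1 and Col-0 at 24 h, 3 higher and 2 lower between OE-6 and atdgcr14l-1 at 24 h, and 1 in the interaction between these lines. With copies summed 0 were called higher between lines at 24 h. A filter at a mean of 5 CPM gave 2 higher between OE-6 and atdgcr14l-1 at 24 h. With replicate 3 of atdgcr14l-1 and replicate 2 of OE-6, both of 24 h, left out together, a choice made after seeing the data, 1 was called higher with salt in Col-0 and 1 in OE-6. The cause of these differences was not tested.

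With no TMM scaling the summed levels at 0 h moved by more than 1 SD: ATP synthase in CPM to 2298 in Col-0 and 2487 in the mutant, LHCA to 21126 and 21624 in atdgcr14l-1 and OE-6, photosystem I to 23850.2 and 24824, photosystem II to 24269 and 24955, and all members to 144420 and 148537. With organelle genes left out LHCA stood at 21751 in atdgcr14l-1.

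The replicate block gave 39, 43 and 43 genes called lower with salt. Of 564 results for single genes it left 558 on the same side of the threshold and 6 no longer past it, which were LHCB1.3, LHCB4.1, LHCA2, PSBX and PSAL in Col-0 and LHCB4.1 in atdgcr14l-1. The labels do not say whether a replicate number pairs the libraries. The deviations of 40 same-numbered pairs correlated between -0.162 and 0.324, with 4 over 0.1. The highest was that of OE-6 replicate 1 at 0 h and 24 h. Differently numbered pairs were not correlated, so these values cannot decide whether libraries are paired.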

Other observations

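Genes that build and regulate the photosystems were also compared between lines, over 64 genes of the 6 lists. At 0 h 1 was called higher between the mutant and Col-0, beside 1.45% of all genes, and 1 lower between OE-6 and the mutant, beside 3.09%. Between OE-6 and Col-0 edgeR called 0 at either time, and 0 and 9 were under an unadjusted p of 0.05 at 0 h and 24 h. At 24 h 2 were higher and 4 lower between the mutant and Col-0, beside 7.71% and 4.67% of all genes, and 3 higher and 2 lower between OE-6 and the mutant, beside 5.17% and 6.79%. Those counts are near the shares over all genes or below them. CAO, which makes chlorophyll b, was at 138 and 142 CPM at 0 h and 70.1, 72.3 and 70.9 CPM at 24 h in Col-0, 186, 193 and 185 and then 81.7, 93.2 and 93.3 in the mutant, and 136, 134 and 131 and then 78.2, 89.5 and 87.2 in OE-6. It was higher in the mutant than in Col-0 by 0.43 ± 0.08 (adjusted p = 0.0133) at 0 h and 0.33 ± 0.07 (adjusted p = 0.0114) at 24 h, and OE-6 differed from the mutant by -0.49 ± 0.07 (adjusted p = 0.00128) at 0 h, on the log2 scale with SEs from edgeR. Between OE-6 and the mutant at 24 h CAO was not called, and their values overlapped. At 24 h HEMA1, the glutamyl-tRNA reductase that opens chlorophyll synthesis, was higher in the mutant than in Col-0 (0.74 ± 0.20, adjusted p = 0.0268). GLK1, a transcription factor known to drive antenna genes, was lower in the mutant than in Col-0 (-0.50 ± 0.13, adjusted p = 0.0244) and higher in OE-6 than in the mutant (0.49 ± 0.13, adjusted p = 0.0261). TAP38, the phosphatase of the antenna, had the same order, at -0.63 ± 0.15 (adjusted p = 0.0164) and 0.55 ± 0.15 (adjusted p = 0.0289). GLK1 stood at 199, 202 and 179 CPM in Col-0, 141, 150.2 and 119.8 in the mutant and 168, 241 and 169 in OE-6 at 24 h. These pairs of comparisons share the libraries of the mutant.

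At 24 h SIG4, a plastid sigma factor (-0.38 ± 0.12, adjusted p = 0.0461), and LFNR2, a ferredoxin reductase of the leaf (-0.65 ± 0.16, adjusted p = 0.0209), were lower in the mutant than in Col-0. Between OE-6 and the mutant at 24 h, CHLI1, of magnesium chelatase (-0.41 ± 0.10, adjusted p = 0.0190), and HY5 (-0.47 ± 0.14, adjusted p = 0.0467) were lower in OE-6, and ZEP, which remakes violaxanthin (0.44 ± 0.13, adjusted p = 0.0432), was higher. Calls between lines for genes of the lists are given here without alternatives. Over all genes, the share called higher in the mutant than in Col-0 at 24 h ran from 3.16% to 10% with single libraries left out. The share called lower ran from 1.66% to 7.54%.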
